A study of Mus musculus with 12 samples.

Results

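The Dlx and Msx genes encode homeodomain transcription factors, and 8 of them (Dlx1 to Dlx6, Msx1 and Msx2) were followed among 21851 protein-coding genes of the mouse genome (build mm10, GENCODE M21). The 6 Dlx genes lie in 3 pairs, so the 8 genes made 5 loci. A locus was the gene body or bodies with 50000 bp on each side, and every peak of the 4 deposited lists that touched a locus was taken, whatever its call. The 5 loci spanned 573829 bp and held 16 of the 22555 distinct peak intervals, called segments here. They were chosen by gene name and position and not by a peak value, although earlier results of these data were known.

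The cells were mesenchymal stem cells (MSCs), called bone-marrow MSCs in the labels and taken from the endosteal bone surface according to the methods, from male wild-type C57BL/6N mice aged 3 to 5 months. They were grown out from bone chips of the hind limb in hypoxia and sorted as CD45-, TER-119-, CD140a+ and Sca-1+ cells, on day 12 according to the labels. The sorted cells were then kept at 2% oxygen (hypoxia) or 21% oxygen (normoxia), so the normoxic cells had been in hypoxia before. In chromatin immunoprecipitation followed by sequencing (ChIP-seq), the 12 libraries formed 6 groups of 2: acetylated lysine 27 of histone H3 (H3K27ac), trimethylated lysine 4 (H3K4me3) and input chromatin at each oxygen level. The authors deposited 1 peak list for each mark and oxygen level, made from both libraries together. The lists hold no reads, so depth, the spread between libraries and the input were not analysed here, and no difference below has a replicate check or a test. MSC outgrowths can hold more than 1 kind of cell, and fewer cells carrying a mark and a weaker mark in each cell cannot be told apart.

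Dlx genes are relatives of Distal-less of the fly. In vertebrates the partners of a pair face each other tail to tail and share enhancers that lie between and around them. Msx genes are relatives of the fly gene muscle segment homeobox. Both families respond to bone morphogenetic proteins (BMPs) in skull, tooth and limb, where Dlx proteins mostly activate and Msx proteins mostly repress transcription. Their homeodomains recognise DNA around the core TAATTA. H3K4me3 marks promoters, including many that are silent but free of DNA methylation, whereas H3K27ac marks active promoters and enhancers.

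The lists held 15203 H3K27ac peaks in hypoxia and 14832 in normoxia, and 14606 and 14603 H3K4me3 peaks. Each carries a score of the authors' caller that has no unit and whose definition was not given in the sources used here. Values lay between 50 and 160 or stood at 1000. Its level differed between chromosomes: the median of the scores below 1000 in the hypoxia H3K27ac list ran from 73 on chromosome 16 to 117 on chromosome 5. Scores were therefore read within a chromosome, as the share of that chromosome's peaks in the same list with a lower score. All 14600 H3K4me3 peaks shared by both oxygen levels (100%) had the same score in both, so this score cannot show a difference in H3K4me3. No peak overlapped a peak of another list in part. At the genes of the sort, H3K27ac and H3K4me3 were both called at the start of Pdgfra (CD140a), H3K27ac alone at that of Ly6a (Sca-1), and neither at that of Ptprc (CD45).

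Of the 8 promoters, RefSeq sequence (GRCm38.p6, the same assembly as mm10) was at hand for 4: Dlx1, Dlx2, Msx1 and Msx2. Each runs from 250 bases before to 50 bases after the RefSeq start, 5′ to 3′ along the gene. The first 2 below are neighbours whose H3K27ac calls differed between oxygen levels in Dlx1 and not in Dlx2, and the third comes from a gene with H3K4me3 alone. Motif matches are in capitals.
Dlx1 (chr2:71529195-71529494, plus strand): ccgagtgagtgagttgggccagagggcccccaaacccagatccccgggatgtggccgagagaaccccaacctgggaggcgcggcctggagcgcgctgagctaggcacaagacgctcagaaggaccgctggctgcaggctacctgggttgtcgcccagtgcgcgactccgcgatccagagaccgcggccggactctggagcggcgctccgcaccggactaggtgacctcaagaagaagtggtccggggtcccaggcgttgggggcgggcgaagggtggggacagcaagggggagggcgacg
Dlx2 (chr2:71546705-71547004, minus strand): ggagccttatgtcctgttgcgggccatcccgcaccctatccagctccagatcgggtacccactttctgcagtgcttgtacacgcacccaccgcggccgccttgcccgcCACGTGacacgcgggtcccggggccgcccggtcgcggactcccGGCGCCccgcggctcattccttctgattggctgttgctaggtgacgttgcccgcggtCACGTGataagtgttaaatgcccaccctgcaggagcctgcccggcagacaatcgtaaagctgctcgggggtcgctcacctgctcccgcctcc
Msx2 (chr13:53472731-53473030, minus strand): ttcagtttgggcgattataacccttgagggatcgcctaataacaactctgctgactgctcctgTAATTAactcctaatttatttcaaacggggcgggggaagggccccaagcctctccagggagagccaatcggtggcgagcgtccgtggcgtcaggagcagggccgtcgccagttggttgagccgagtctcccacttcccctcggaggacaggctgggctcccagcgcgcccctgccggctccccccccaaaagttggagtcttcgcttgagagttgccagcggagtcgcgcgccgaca
The motifs searched on both strands were TAATTA, the core of the hypoxia response element ACGTG, the GC-rich Smad element GGCGCC and the TATA box TATAAA. The Dlx1 promoter held none of them, nor did that of Msx1 (chr5:37824536-37824835, minus strand). The Dlx2 promoter held CACGTG at bases 109 and 209 (counted from 1 at the 5′ end), each of which reads as ACGTG on both strands and so counts as 2 of its 4 matches. CACGTG is also the E-box recognised by other factors. Dlx2 also held GGCGCC at base 152. The Msx2 promoter held TAATTA at base 64. Among 32851 RefSeq promoters of this length, 5.29% held TAATTA, 19.6% ACGTG, 11.9% GGCGCC and 13.6% TATAAA. All 4 member promoters were rich in CpG, with 27 in Dlx1, 29 in Dlx2, 29 in Msx1 and 22 in Msx2 against a median of 7. Such counts are not rare: 84.5%, 87.1%, 87.1% and 76.9% of promoters, in the same order, had fewer. The match counts do not include other forms of these motifs. A match is a description of the letters and not a bound site.

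Several H3K27ac segments of the Dlx loci held the core TAATTA that Dlx and Msx proteins recognise. The sites below are written along the plus strand with 12 bases on each side, and TAATTA reads the same on both strands.
Dlx1 body, upstream of the pair of sites (chr2:71530631-71530660): tattagtctcggTAATTAtttattgcgtag
Dlx1 body, downstream of the pair of sites (chr2:71530677-71530706): tgcaattaagggTAATTAaacctcaactac
Dlx2 start segment (chr2:71546478-71546507): cagcaaccaatgTAATTAcggggaggggga
Far intergenic segment at Dlx3 (chr11:95089342-95089371): ttgtgtagggagTAATTAgcccacatggcc
Intron of Dlx6os1 (chr6:6831615-6831644): aatcttttttttTAATTAggtactttcatc
The segment in an intron of Metap1d near Dlx1 held 2 further sites, or 0.444 per kb. The segments near Dlx3 and in Dlx6os1 held 1 and 1, or 0.182 per kb each, and the near intergenic segment at Dlx3 held none. Across 7946 segments with H3K27ac but no H3K4me3 the median was 0.222 per kb, so these 4 lay on both sides of it.

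All 8 genes carried H3K4me3 at their start at both oxygen levels, and 3 carried H3K27ac there at either. A mark was at a start when a peak lay within 1000 bp of the start of a coding transcript. H3K4me3 was at the start of 58.9% of all protein-coding genes. H3K27ac was at the start of 3 of the 8 genes in hypoxia (Dlx1, Dlx2 and Dlx5) and of 2 in normoxia (Dlx2 and Dlx5), against 37.6% and 37.0% of all genes, so in hypoxia the share was close to that of genes at large. The other 5, Dlx3, Dlx4, Dlx6, Msx1 and Msx2, had H3K4me3 and no H3K27ac in any list, which held for 38.0% of the 12873 genes with H3K4me3. With the lowest-scoring 25% of each list left out, 2 of the 8 genes kept H3K4me3 at the start. The lower quartile of both H3K4me3 lists was 124, and the best scores at the starts that lost the call ran from 118 to 123. With the lowest 25% of each chromosome left out, 3 genes kept it. The share of all genes that keep H3K4me3 under these limits was not computed, so the counts have no background. Within their chromosome, the share of H3K4me3 peaks with a lower score was 11.6% at Dlx3, 15.7% at Dlx4, Dlx5 and Dlx6, and 16.4% at Msx1. It was 41.7% at Dlx2 and at the higher-scoring segment of Dlx1, and 50.6% at Msx2. The raw H3K4me3 scores given below do not rank genes of different chromosomes. No H3K4me3 segment of the loci was called at 1 oxygen level only, which in all lists was so for 0.0616% of segments.

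**Figure D1:**
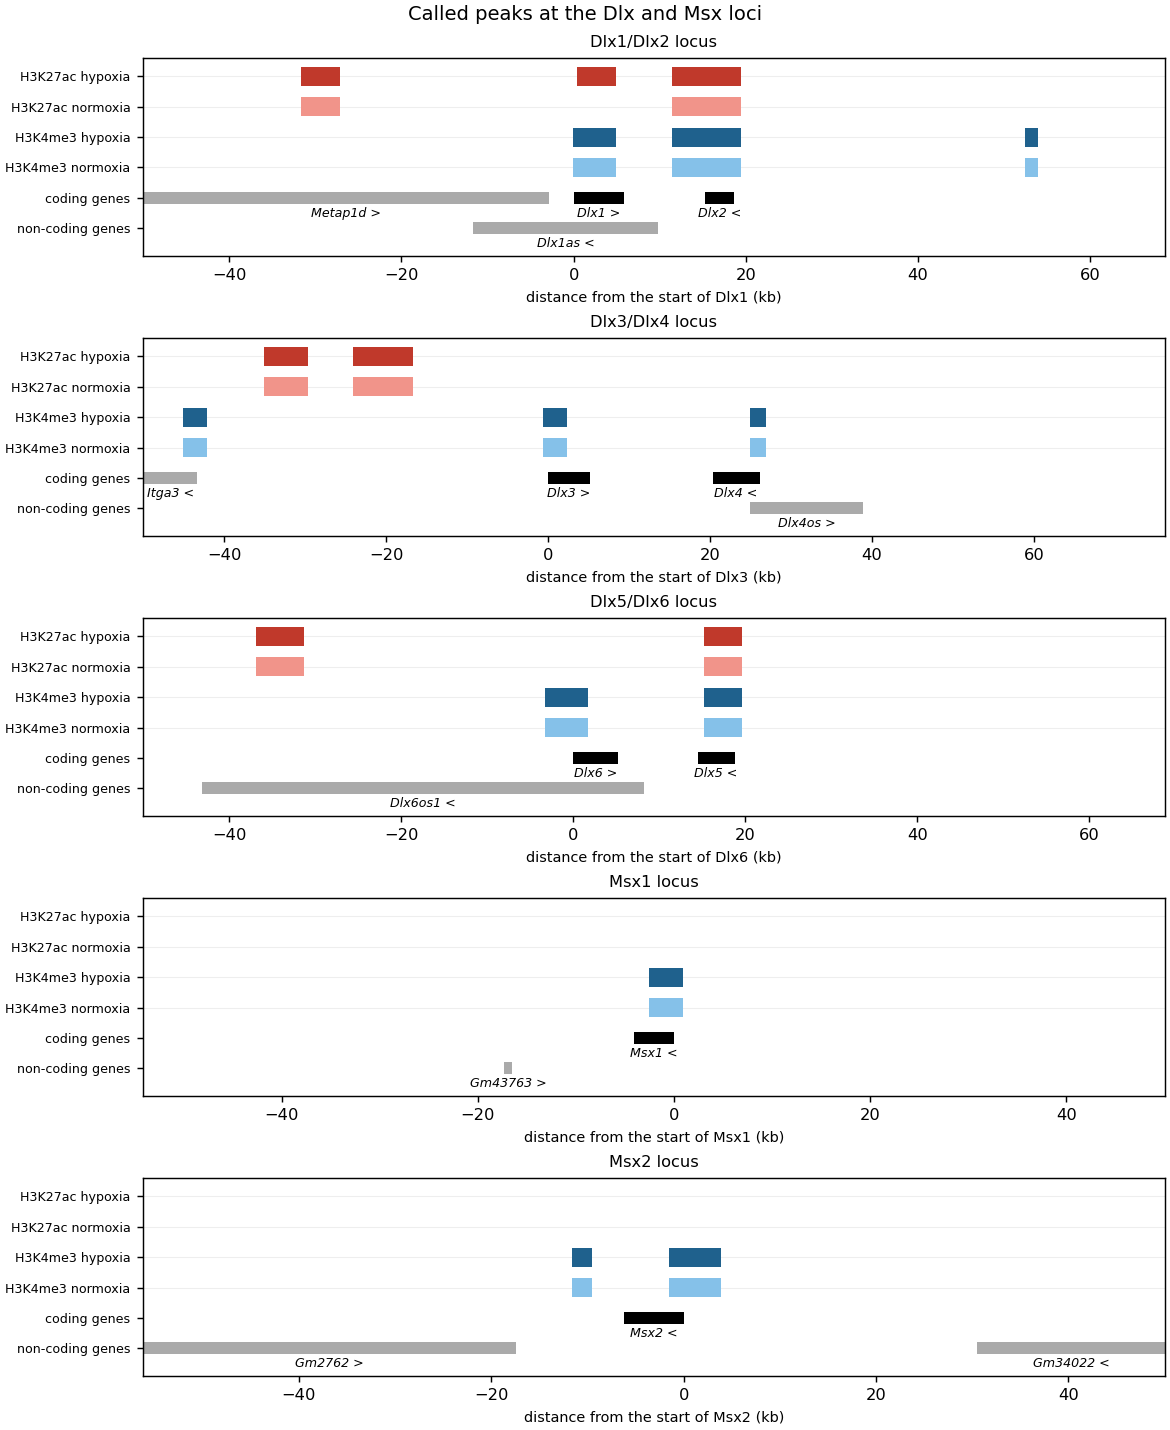
Called peaks at the 5 loci, with the distance from a gene start in kb on the x axis and a row for each list (H3K27ac in red, H3K4me3 in blue, normoxia in the paler shade) and for genes (black for Dlx and Msx genes, grey for others, arrowheads for strand). The H3K27ac block at Dlx1 is the only block of the 16 segments that lacks its normoxia partner, and both Msx loci have no H3K27ac row filled.

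Of the 16 segments, 15 had the same calls at both oxygen levels. H3K4me3 alone was called on 9, H3K27ac alone on 4, both marks at both oxygen levels on 2, and H3K4me3 with H3K27ac in hypoxia only on 1. The shares of these combinations over all segments were not computed. Equal calls were the rule in all lists. There, 3.82% of H3K27ac segments were called in hypoxia only, 1.41% in normoxia only, and 0.0616% of H3K4me3 segments at 1 oxygen level only. Of the 7 H3K27ac segments of the loci, 6 were called at both oxygen levels. The H3K27ac list had 7 peaks at the loci in hypoxia and 6 in normoxia, and H3K4me3 had 12 at each oxygen level. H3K27ac covered 6.97% of the loci in hypoxia and 6.19% in normoxia, and H3K4me3 covered 7.49%. Over the whole genome these shares were 3.29%, 3.23% and 1.45%. The genome includes long stretches without genes, whereas the loci are windows centred on genes that all carry H3K4me3 at their start. The shares are therefore not alike in kind, and those of the same windows around all protein-coding genes were not computed. The H3K27ac lay in the 3 Dlx loci, and both Msx loci stood at 0. The shares depend on the flank: H3K4me3 covered 14.1% with 20000 bp and 4.94% with 100000 bp, and H3K27ac in hypoxia 7.44% and 4.47%.

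At the pair Dlx1 and Dlx2, factors of interneuron and jaw development, the only difference in calls between the oxygen levels was found. The Dlx1 body (ENSMUSG00000041911, chr2:71528113-71533981, plus strand) carried a 4500 bp H3K27ac segment in hypoxia (chr2:71528501-71533000) with no call in normoxia. Its score was 55, and 5.87% of the H3K27ac peaks of chromosome 2 in hypoxia scored lower, so the call was close to the lower limit of 50. Among all H3K27ac segments, 3.82% were called in hypoxia only and 1.41% in normoxia only. Chromosome 2 held 52 of the 589 hypoxia-only segments. Their median score was 59.5, and 19 of the 52, the Dlx1 segment included, scored 55 or less. With the lowest-scoring 25% of each list left out, the Dlx1 call was lost. At the level of genes, 1.09% of protein-coding genes had a hypoxia-only segment at a start.

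The same 4500 bp carried H3K4me3 at both oxygen levels with a score of 122. Of the 589 hypoxia-only segments, 176 carried H3K4me3 on the same interval. Exons of Dlx1 made up 61.0% of the segment and introns 39.0%. The antisense gene Dlx1as also runs across it and has 1 of its starts within 1000 bp of it, and ChIP-seq cannot tell the strands apart. The GENCODE start of Dlx1 (base 71528113) lay 388 bp outside the segment, in a 500 bp segment (chr2:71528001-71528500) with H3K4me3 alone and a score of 56. The RefSeq start lay 1332 bp further into the gene and inside the hypoxia-only segment, together with the whole promoter sequence printed above. Whether the H3K27ac segment holds the Dlx1 promoter thus depends on which start is taken.

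Dlx2 (ENSMUSG00000023391, chr2:71543408-71546754, minus strand) carried the highest H3K27ac score of its own locus. A single segment of 8000 bp (chr2:71539501-71547500) held its start, with an H3K27ac score of 1000 at both oxygen levels and an H3K4me3 score of 122 at both. A score of 1000 was not rare: 40.0% of the H3K27ac peaks of chromosome 2 had it in hypoxia and 33.9% in normoxia. It was rare on the chromosomes of the other Dlx loci. Both scores were below 1000 in 621 of 1124 shared H3K27ac segments on chromosome 2, 1107 of 1109 on chromosome 11 and 755 of 758 on chromosome 6. The Dlx2 score thus cannot be set against those at the other Dlx loci. Peaks of that chromosome with a lower score made up 60.0% in hypoxia and 66.1% in normoxia. The segment ran past the 3′ end of Dlx2 into the interval between the genes, where it covered 3907 of 9426 bp. Upstream of the pair, an intron of Metap1d, a mitochondrial methionine aminopeptidase gene, held H3K27ac alone at both oxygen levels (chr2:71496501-71501000, 27113 bp from the Dlx1 start). Its score was 109 in hypoxia and 94 in normoxia. On the Dlx2 side an intergenic segment of 1500 bp, 33747 bp from the Dlx2 start, held H3K4me3 alone with a score of 97. H3K27ac covered 14.3% of this locus in hypoxia and 10.5% in normoxia. The nearest normoxia-only H3K27ac lay 6473112 bp from the pair.

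Dlx3 and Dlx4 had H3K4me3 at their starts and H3K27ac only at a distance. Dlx3 is a factor of skin, tooth and bone (ENSMUSG00000001510, chr11:95120119-95125296, plus strand). Its start lay in a 3000 bp H3K4me3 segment (chr11:95119501-95122500) with a score of 118 at both oxygen levels. Dlx4 (ENSMUSG00000020871, chr11:95140447-95146263, minus strand) had a 2000 bp H3K4me3 segment (chr11:95145001-95147000) with a score of 131, which also holds the start of the antisense gene Dlx4os. Both scores were low for the chromosome: 11.6% of its H3K4me3 peaks scored below the Dlx3 segment and 15.7% below the Dlx4 segment. The 15150 bp between the genes held no peak of any list. H3K27ac alone was called on 2 intergenic segments upstream of Dlx3 at both oxygen levels. The nearer (chr11:95096001-95103500) lay 16619 bp from the Dlx3 start and scored 134 in hypoxia and 125 in normoxia. The farther (chr11:95085001-95090500) lay 29619 bp away and scored 134 and 118. In hypoxia 76.5% of the peaks of chromosome 11 scored below either of them, and in normoxia 61.7% and 58.0% did. Beyond them, the start of Itga3, an integrin subunit gene, held H3K4me3 alone with a score of 139. A peak list ties no segment to a gene, so the target of these segments was not tested. The nearest condition-specific H3K27ac lay outside the locus: normoxia-only in Spop at 270237 bp and hypoxia-only in Spag9 at 1085618 bp.

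Dlx5 and Dlx6 are needed for limb and jaw, and Dlx5 is an activator of the osteoblast programme. At the Dlx5 start (ENSMUSG00000029755, chr6:6877805-6882085, minus strand) a 4500 bp segment (chr6:6878501-6883000) held both marks. Its H3K27ac score was 85 in hypoxia and 60 in normoxia. Of the H3K27ac peaks of chromosome 6, 35.8% scored lower in hypoxia and 13.2% in normoxia. With the lowest-scoring 25% of each list left out, the normoxia call was lost and the hypoxia call kept. Its H3K4me3 score was 123. Dlx6 (ENSMUSG00000029754, chr6:6863334-6868568, plus strand) had H3K4me3 alone over 5000 bp (chr6:6860001-6865000), also at 123. This score was shared by 9.52% of the H3K4me3 peaks of the chromosome, so equal scores of neighbours carry little information. The start of the antisense gene Dlx6os2 lies in the same segment. H3K27ac alone was called in an intron of the antisense gene Dlx6os1 (chr6:6826501-6832000), 31334 bp from the Dlx6 start, with a score of 124 at both oxygen levels. The 9236 bp between Dlx6 and Dlx5 held no peak. The nearest condition-specific H3K27ac lay 21730415 bp from the pair.

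Neither Msx locus held H3K27ac at either oxygen level. In the genome 34.9% of protein-coding genes had no H3K27ac peak in such a window in hypoxia. Msx1, a factor of tooth and palate (ENSMUSG00000048450, chr5:37820485-37824583, minus strand), had a 3500 bp H3K4me3 segment at its start (chr5:37822001-37825500) with a score of 123, and no other peak in the window. That score was shared by 19.2% of the H3K4me3 peaks of chromosome 5. Msx2, a factor of skull growth (ENSMUSG00000021469, chr13:53466884-53473074, minus strand), had 5500 bp of H3K4me3 at its start (chr13:53471501-53477000) with a score of 129. A second H3K4me3 segment of 2000 bp, intergenic and 9574 bp from the Msx2 start, scored 127. The nearest H3K27ac to the Msx1 body lay 434917 bp away in Tmem128, with scores of 115 in hypoxia and 114 in normoxia. The nearest to the Msx2 body lay 198383 bp away in Ror2, a receptor gene of Wnt signalling, with a score of 75 at both. For genes with H3K4me3 and no H3K27ac at their start, the median distance from the start to H3K27ac in hypoxia was 48017 bp. By the same measure Dlx3 stood at 16619 bp, Dlx6 at 15167, Dlx4 at 42763, Msx2 at 204574 and Msx1 at 434918, so the Msx genes lay beyond the median and the Dlx genes within it.

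Across the loci, the H3K27ac scores were equal or lower in normoxia. Of the 6 H3K27ac segments called at both oxygen levels, 4 scored lower in normoxia, 2 were equal and 0 were higher. The equal segment at Dlx2 stood at the top score of 1000 in both lists, so its equality carries little information. Over all lists, 2575 of the 6365 equal segments also stood at 1000 in both. Over all 14614 shared H3K27ac segments, 39.9% scored lower in normoxia, 43.6% were equal and 16.6% were higher, so lower scores were also the commoner change elsewhere. On chromosomes 2, 11 and 6, 37.5%, 47.2% and 38.1% scored lower, and 16.3%, 10.9% and 19.8% scored higher. The differences at the loci were -15 in Metap1d, -16 and -9 upstream of Dlx3 and -25 at the Dlx5 start. Within a chromosome, the shared segments with both scores below 1000 had a median difference of 0 on chromosomes 2, 11 and 6 alike, with lower quartiles of -9, -9 and -4. The segments in Metap1d, at the farther site upstream of Dlx3 and at the Dlx5 start lay below the lower quartile of their chromosome, and the nearer site at Dlx3 lay on it. How far a score varies between libraries is unknown.

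**Figure D2:**
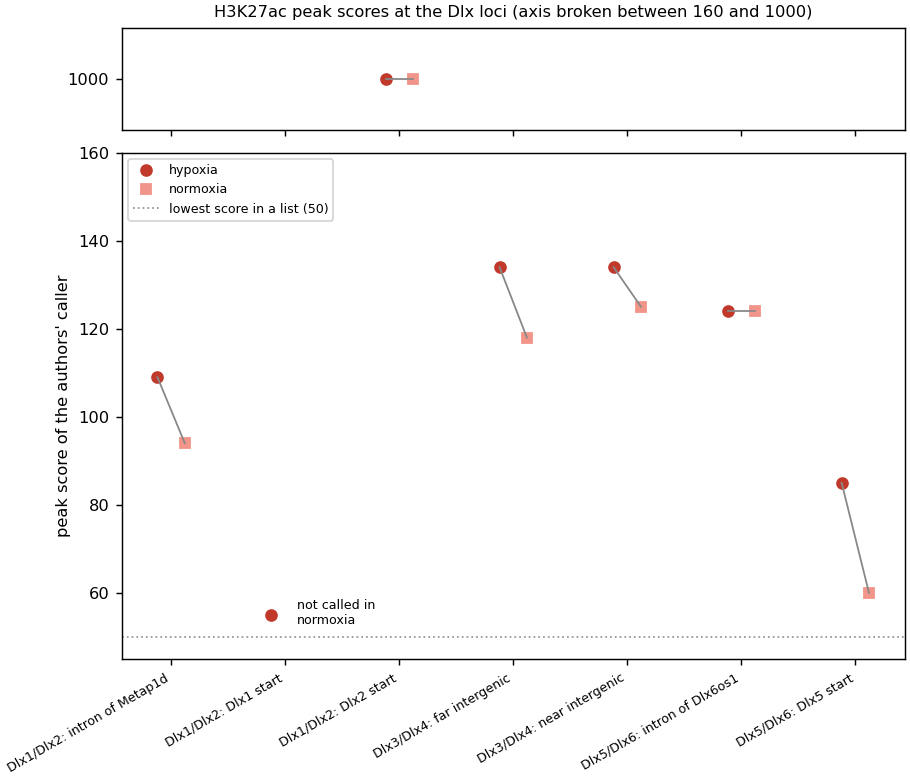
Score of the authors' caller (y axis, no unit, broken between 160 and 1000) for the 7 H3K27ac segments of the Dlx loci (x axis) in hypoxia (circles) and normoxia (squares), with lines joining the values of a segment. The normoxia score is lower in 4 segments and equal in 2, and the Dlx1 segment, at 55 in hypoxia, sits just above the dotted line at 50, the lowest score in a list. Score levels differ between chromosomes, so heights are to be compared within a locus only.

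The H3K4me3 stretches at the starts of these genes were mostly wider than the median of marked genes. Only touching peaks were joined for this width. The 8 widths had a median of 4750 bp and ran from 2000 bp at Dlx4 to 8000 bp at Dlx2. The 12873 genes with H3K4me3 had a median of 3000 bp and quartiles of 2500 and 3500 bp, and 6 of the 8 genes lay above this median. Dlx2 was wider than 98.6% of those genes, Msx2 (5500 bp) than 93.6%, and Dlx1 and Dlx6 (5000 bp each) than 91.2%. Dlx5 (4500 bp) was wider than 87.7% and Msx1 (3500 bp) than 68.3%. Dlx3 (3000 bp) was wider than 45.6%, and Dlx4 than 1.57%. Msx2, without H3K27ac at its start, was wider than Dlx5, with it. Boundaries fall on steps of 500 bp, so neighbours in this order that differ by 500 bp are not resolved.

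**Figure D3:**
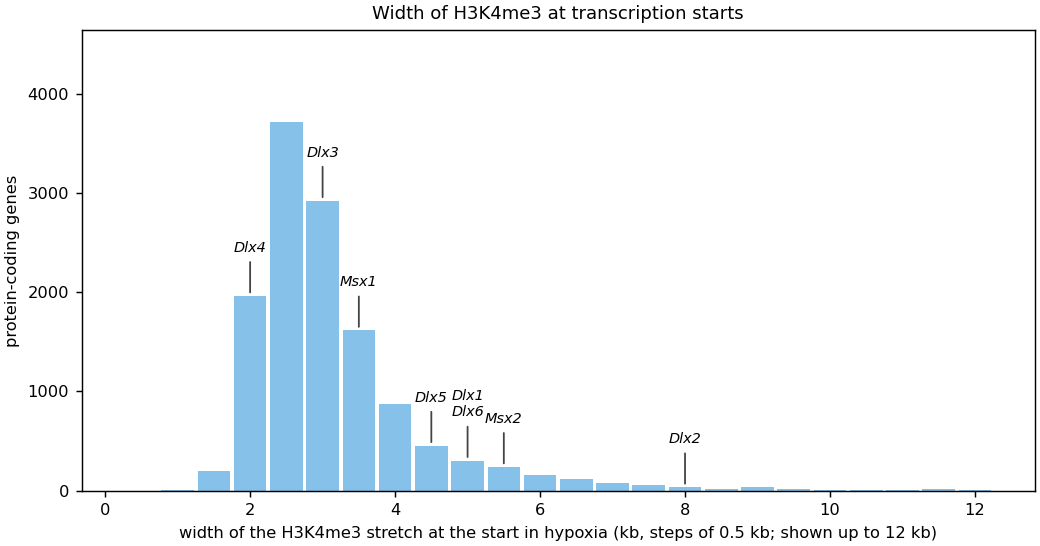
Histogram of the width of the H3K4me3 stretch at the start of protein-coding genes in hypoxia (x axis in kb, y axis number of genes), with the 8 Dlx and Msx genes marked at their width. Dlx4 is at the narrow end with 2000 bp, and Dlx1, Dlx2, Dlx5, Dlx6 and Msx2 lie in the right-hand tail from 4500 to 8000 bp.

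The GC content of the H3K4me3 segments at the starts lay above the median of marked starts in 6 of the 8 genes. Over 11788 H3K4me3 segments that hold a coding start, the median GC content was 52.5% and the median ratio of observed to expected CpG was 0.569. The GC content was 56.8% at Dlx4, 56.3% at Dlx3, 56.0% at Dlx2, 55.3% at Msx1, 54.8% at Dlx5, 53.7% at Dlx6 and 51.6% at Msx2. At Dlx1 the 500 bp segment with the GENCODE start had 42.4%, lower than nearly all others (0.857% of such segments were lower), while the adjoining hypoxia-only segment had 57.5%. That short segment, which has no H3K27ac call, held 3 TAATTA sites other than those given above. The CpG ratio ran from 0.535 at Msx2 to 0.713 in the short Dlx1 segment.

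The calls of the 8 genes were set beside lists of related genes. Of 49 related homeobox genes 48 matched the annotation. H3K4me3 was at the start of 22, with H3K27ac in 4 (Emx2, En1, Hlx and Meox2) and without it in 18, such as Barx1, Barx2, Barhl2 and Dbx2. The remaining 26 had neither mark. The 4 genes with both marks had the calls of Dlx5, and the 18 with H3K4me3 alone those of Dlx3 and Msx1, in all 4 lists. H3K4me3 was thus at 8 of 8 Dlx and Msx starts and at 22 of 48 starts of the relatives, against 58.9% of all protein-coding genes. This was not particular to the Dlx and Msx genes. In the lists below, H3K4me3 was at 16 of 16 bone transcription factors and partners and 11 of 11 BMP antagonists, inhibitory Smads and Id genes. It was at 14 of 16 BMP ligands, receptors and Smads and 4 of 10 bone matrix genes.

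BMP signalling acts upstream of both families. Over all protein-coding genes, 35.8% had both marks at a start at both oxygen levels, 22.4% H3K4me3 alone and 39.9% neither mark, and the lists below are given by counts beside these shares. Of 16 genes for BMP ligands, receptors and Smads, 9 had both marks at their start, such as Bmp4, a ligand, and the receptors Bmpr1a, Bmpr2 and Acvr1. H3K4me3 alone was at 5, among them the ligands Bmp2, Bmp6 and Bmp7 and the receptor Bmpr1b, and neither mark at Bmp5 and Gdf5. Of 11 BMP antagonists, inhibitory Smads and Id genes, which hold back BMP signals or answer to them, 8 had both marks, such as Nog, Fst, Smad6 and Smad7. H3K4me3 alone was at the other 3, such as Grem1 and Chrd. In both lists the calls at the starts were the same in hypoxia and normoxia.

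Among 16 bone transcription factors and partners of Dlx or Msx proteins, 11 had both marks (35.8% of all genes), such as Runx2, the master factor of osteoblasts, Twist1 and Prrx1. H3K4me3 alone was at 5, such as Sp7, a factor downstream of Runx2, Twist2, Alx4 and Lef1. Of 10 bone matrix genes, which these factors act on, 3 had both marks (Col1a1, Col1a2 and Sparc), Alpl had H3K4me3 alone, and 6 had neither (39.9% of all genes), such as Ibsp, Spp1, Bglap and Bglap2. No gene of these lists had a condition-specific call at its start. Within 50000 bp, 3 bone matrix genes (Bglap, Bglap2 and Alpl) and 3 related homeobox genes had a hypoxia-only H3K27ac segment, and 1 related homeobox gene a normoxia-only segment. In all genes these shares were 7.55% and 1.85%. For Dlx and Msx genes the counts were 2 of 8 and 0 of 8, and the 2, Dlx1 and Dlx2, share the same segment. Bglap and Bglap2 are neighbours and may share theirs in the same way.

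Markers of other cell types were called as follows. Of 13 mesenchymal stromal markers 12 had H3K4me3 and 11 H3K27ac at the start at both oxygen levels. H3K27ac was at 1 of 8 blood markers (Csf1r, without H3K4me3), and H3K4me3 alone at 2, such as Klf1. H3K27ac was at none of 5 endothelial, 5 nerve and 4 surface epithelium markers, where H3K4me3 was at 1, 2 and 2. No list of markers differed between oxygen levels at a start. Within 50000 bp, 3 of the 13 mesenchymal stromal markers (Thy1, Eng and Cxcl12) had a hypoxia-only H3K27ac segment, against 7.55% of all genes, and none of the other marker lists did.

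**Figure D4:**
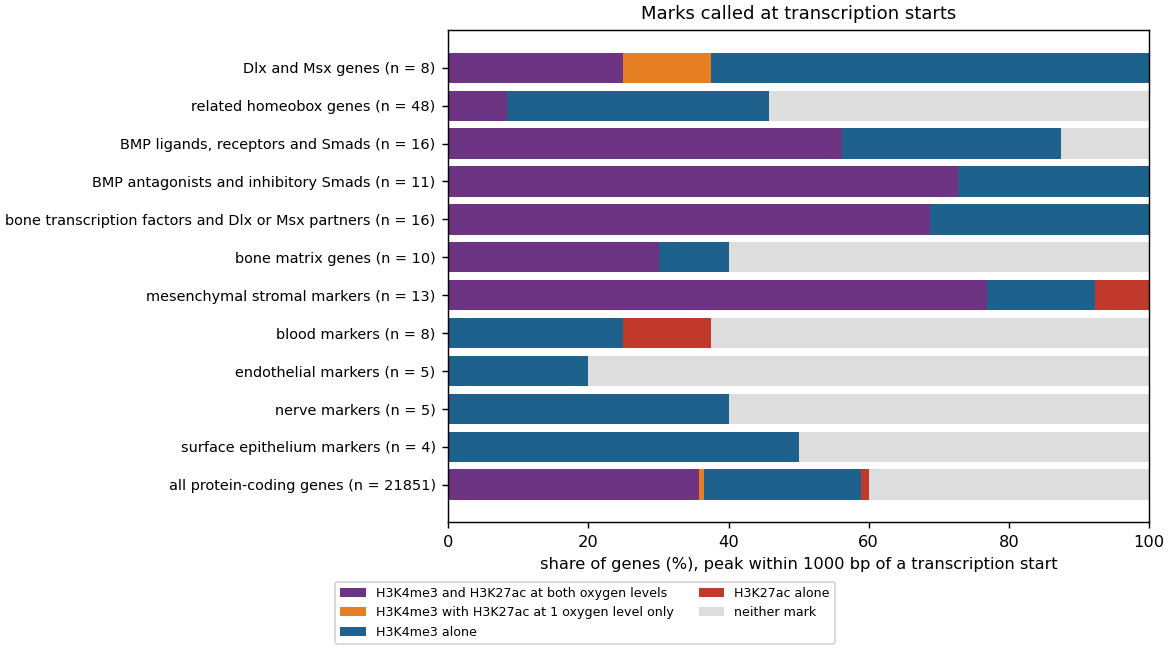
Share of genes (x axis, %) by the marks called within 1000 bp of a start, for the Dlx and Msx genes, 10 gene lists and all protein-coding genes, with the number of genes in each row label. The 8 Dlx and Msx genes all have H3K4me3, 5 of them without H3K27ac, and the orange part is Dlx1, called for H3K27ac in hypoxia only.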

How the data were processed

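ChIP-seq was carried out for H3K27ac, H3K4me3 and input chromatin in MSCs at 2% and 21% oxygen, with 2 libraries each. In the study's account, reads were mapped to mm10 (bowtie2), duplicates were taken out (Picard MarkDuplicates), and chromstaR, a hidden Markov model of read counts in genomic windows, called peaks for both oxygen levels jointly. The authors deposited 4 peak lists with positions and a score per peak, whose definition was not given in the sources used here. The lists are a joint segmentation, so a model that favours equal states can lower the number of differences called.

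Intervals were intersected in Python 3.11.15 with numpy 2.4.6 and pysam 0.24.0, on code tested on simulated intervals. A segment was condition-specific when the same mark was not called on any of its bases at the other oxygen level. Genes and starts were those of the GENCODE M21 basic annotation. Pooled lists allow no test. The genes named were the 8 members, genes overlapped by peaks in the windows, and up to 4 names per call in the order each list was written; some listed genes are not reported here by name. The members and the 10 gene lists were chosen with earlier results of these data known. Other flanks, start windows, score thresholds, overlap rules and joining of peaks were tried.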

Additional observations from a re-analysis of the deposited data

How the results depend on the processing

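No paired analysis was possible because the libraries of a group were merged in each list, and for the same reason no library could be left out. With a flank of 20000 bp, the H3K27ac peaks at the loci numbered 4 in hypoxia and 3 in normoxia, and H3K4me3 covered 14.1% of them. With 100000 bp, 2 H3K27ac segments were condition-specific, and H3K27ac covered 4.47% and H3K4me3 4.94% in hypoxia. Leaving out the lowest-scoring 25% of each list left 4 H3K4me3 peaks in each list, 2 genes with H3K4me3 at a start and 2.18% covered by H3K4me3. Leaving out the lowest 25% of each chromosome, an alternative chosen after seeing the data, left 4, 3 and 3.66%. At the Msx1 start 19.2% of the peaks of the chromosome share the score, so a limit keeps or drops many peaks together.

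Under both thresholds 1 H3K27ac segment was condition-specific, but a different segment: the Dlx1 call (score 55) was left out, and the Dlx5 start became hypoxia-only because its normoxia call (score 60) was left out. Both thresholds, and the rule that a peak must cover the start base, left 2 genes with H3K27ac at a start in place of 3. In all, 36 of 50 alternatives kept a value within 1.5 times, and this count includes the changes named in this paragraph.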

Other observations

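The band from 50000 to 100000 bp around the genes, looked at after the values in the loci were known, held 6 more segments. A second hypoxia-only H3K27ac segment lay in Metap1d (chr2:71472501-71476500), 51612 bp from the Dlx1 body. It scored 56, so both hypoxia-only segments near Dlx1 were close to the lower limit of 50, and between them the segment in an intron of Metap1d was called at both oxygen levels with 109 in hypoxia and 94 in normoxia. Beyond Dlx6os1 an intergenic segment (chr6:6800001-6804000), 59333 bp from the Dlx6 body, held H3K27ac with 72 in hypoxia and 71 in normoxia. The other 4 held H3K4me3 alone at both oxygen levels, at Metap1d, Pdk2, Sdhaf3 and Sptlc1. The nearest hypoxia-only H3K27ac to Msx1 lay 2267484 bp away and the nearest to Msx2 lay 1736926 bp away.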
